A study of Mus musculus with 22 samples.

Results

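Integrin subunits of epithelial and mesenchymal cells, 10 in all, were followed on Affymetrix arrays of mouse RNA: Itga2, Itga3, Itga5, Itga8, Itgav, Itgb1, Itgb3, Itgb4, Itgb5 and Itgb6. All probe sets annotated to these 10 genes were taken, which gave 30 of the 45037 probe sets that are not controls, and each gene had at least 1. The first group of 3 samples was the side population, the fraction that pumps out the DNA dye Hoechst, sorted from A2C12 cells after 48 h with 100 µg/ml of a monoclonal antibody against mouse EpCAM. The second group was 3 samples of the same sorted fraction without the antibody, and the labels name no control antibody for it. A2C12 is a single tumour line, grown from the lung of a C57BL/6 mouse with c-myc and c-raf transgenes, and both cell groups carry them. The third was whole lung of 16 non-transgenic C57BL/6 mice, 8 labelled female and 8 labelled male, with no age in the labels. The labels call the samples of a group biological replicates. For the cells these are preparations of 1 line, so the p-values measure the spread between preparations and not between tumours.

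Integrins are membrane receptors for the extracellular matrix, each made of 1 alpha and 1 beta subunit, and the pairing sets the ligand. Itgb1 is the common partner of Itga2, Itga3, Itga5 and Itga8, whereas Itgav also pairs with Itgb3, Itgb5, Itgb6 and Itgb8. In the lung, the heterodimer of Itgav and Itgb6 is an epithelial activator of latent TGF-beta, Itga3 anchors epithelium to laminin of the basement membrane, and Itga8 is a receptor of interstitial fibroblasts and smooth muscle.

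The sequences around the starts of 4 of the genes are shown because Itga8, Itga3 and Itgb6 were lower than lung on their brightest probe sets, and because Itgav is the alpha partner of Itgb6 with a difference in the opposite direction. They are RefSeq promoter windows on GRCm38.p6, 250 bases before to 50 after the annotated start, written 5′ to 3′ on the strand of the gene, and for Itga3 and Itgb6 the more upstream of 2 entries is given. Capitals mark matches to the GC box GGGCGG, or its reverse complement, and to the AP-1 motif TGANTCA.
Itga8, chr2:12301895-12302194, minus strand: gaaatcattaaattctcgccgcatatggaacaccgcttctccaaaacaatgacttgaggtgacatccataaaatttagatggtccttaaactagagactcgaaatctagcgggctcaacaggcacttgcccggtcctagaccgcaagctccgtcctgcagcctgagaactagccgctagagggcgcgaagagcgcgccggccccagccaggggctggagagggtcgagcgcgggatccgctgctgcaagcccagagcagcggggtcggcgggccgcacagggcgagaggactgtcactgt
Itgb6, chr2:60722554-60722853, minus strand: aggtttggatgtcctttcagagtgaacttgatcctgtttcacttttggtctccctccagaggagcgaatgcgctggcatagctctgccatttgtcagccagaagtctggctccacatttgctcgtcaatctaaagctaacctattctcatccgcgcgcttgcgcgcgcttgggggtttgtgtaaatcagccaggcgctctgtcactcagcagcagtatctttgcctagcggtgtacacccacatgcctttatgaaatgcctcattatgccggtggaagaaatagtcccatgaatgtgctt
Itga3, chr11:95076665-95076964, minus strand: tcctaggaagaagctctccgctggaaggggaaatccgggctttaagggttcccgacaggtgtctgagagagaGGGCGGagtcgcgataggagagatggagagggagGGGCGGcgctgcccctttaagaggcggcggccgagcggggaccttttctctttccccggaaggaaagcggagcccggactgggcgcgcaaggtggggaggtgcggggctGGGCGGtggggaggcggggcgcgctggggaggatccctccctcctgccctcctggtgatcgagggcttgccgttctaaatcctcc
Itgav, chr2:83724147-83724446, plus strand: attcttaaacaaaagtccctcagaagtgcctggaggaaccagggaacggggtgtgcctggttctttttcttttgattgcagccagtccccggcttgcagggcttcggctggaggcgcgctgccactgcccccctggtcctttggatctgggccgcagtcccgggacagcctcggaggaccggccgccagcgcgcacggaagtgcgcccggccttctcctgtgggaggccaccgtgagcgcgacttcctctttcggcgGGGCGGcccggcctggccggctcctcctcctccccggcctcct
The windows were searched on both strands for the AP-1 motif and the GC box, for the E-box of MYC, spelled CACGTG, for the TATA box, spelled TATAAA, for the ETS core, spelled CGGAAG, and for the CCAAT box. The ETS core can share its first 3 bases with a GC box. None of the 6 motifs matched in the Itga8 or the Itgb6 window. The Itga3 window held 3 GC boxes and 1 ETS core, and the Itgav window 1 of each. Among all 32851 promoter windows, 35.7% held a GC box, 16.9% an ETS core, 7.81% an AP-1 motif, 7.15% an E-box, 13.6% a TATA box and 37.4% a CCAAT box. GC content was 59.0% for Itga8, 50.3% for Itgb6, 66.7% for Itga3 and 67.3% for Itgav, against a median of 52.7% over all windows. These matches describe the letters of the windows only. Windows were found for 8 of the 10 genes, and Itgb3 and Itgb4 had no entry.

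The deposited values are linear intensities with no detection call. The median of an array was 39.3 to 40.6 for cells and 47.9 to 54.6 for lung, and precision is limited by how many arrays there are. Control probe sets were also not level between cell and lung arrays. The dap 3′ control read 366 to 601 on cell and 0.00176 to 2.72 on lung arrays. The log2 ratio of the 3′ to the 5′ Gapdh control was -0.13 to 0.40 on cell and 0.22 to 1.02 on lung arrays. This split coincides with that of cells and lung, and its part in the integrin differences was not tested. The alveolar and airway epithelial markers summed to 592 to 777 in antibody-treated cells, 532 to 701 in untreated cells and 62574 to 82866 in lung, and all 11 were lower in both cell groups (adjusted p under 0.05 and at least 2-fold). On the brightest probe set per gene, 23.9% of all genes tested were lower in antibody-treated and 23.8% in untreated cells, and 17.2% and 17.8% were higher. The fibroblast and smooth muscle markers summed to 10585 to 12104, 10018 to 11262 and 14323 to 24523, in the same order of groups, with 1 of 10 higher and 6 lower than in lung. The 8 endothelial and 7 leukocyte markers were all lower in both cell groups, and 3 of 6 platelet markers were lower. Many of these markers were not above the low-value filter, defined below, on every cell array. With antibody 6 of 11 epithelial, 0 of 8 endothelial, 1 of 7 leukocyte and 3 of 6 platelet markers were. Without antibody the numbers were 5, 1, 1 and 3. The others could be tested only through lung arrays. The filter thus favoured a lower call, and these counts are a description. In whole lung, fewer cells of a type and less RNA per cell cannot be told apart. Lung arrays male 3 and male 4 go against their label, with Xist at 1512 and 1583 and Uty at 8.27 and 9.46, and without both the numbers of integrins called against lung were as with them.

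Compared with lung, the sorted cells had far less Itga8, Itga3 and Itgb6 signal and more Itgb3 signal, with or without the antibody, whereas Itgb1, Itgb4 and Itgb5 lay within 2-fold of lung on their brightest probe sets. Differences are on the scale of log2(intensity + 16) after quantile normalization, and a call needed an adjusted p (limma, Benjamini-Hochberg over all probe sets tested) under 0.05 and at least 2-fold. Of the 30 probe sets, 27 passed the filter on low values, an intensity over the 40th percentile of its array in 3 or more of the samples compared. In antibody-treated cells 4 were called higher than in lung, 8 lower and 15 not, which is 44.4%, against 39.3% of all 32422 probe sets tested (19.8% higher, 19.6% lower). In untreated cells the numbers were also 4, 8 and 15, or 44.4%, against 39.8% of 32533 (20.1% higher, 19.6% lower). The share called was thus near that of the whole array. Deposited intensities did not overlap with lung for 18 of the 27 in antibody-treated cells, against 59.1% of all probe sets tested, and for 16 in untreated cells, against 61.4%. By gene, on the brightest probe set, Itgb3 was higher and Itga3, Itga5, Itga8 and Itgb6 were lower in each cell group, and 5 were not called. These 5 of 10 compare with 41.1% of 15138 genes called in antibody-treated and 41.6% of 15197 in untreated cells. The median log2 difference over these 10 was -0.52 in antibody-treated and -0.42 in untreated cells, against -0.01 and 0.01 over all genes. Without replicate 1 or 2 of the cell group compared, 2 probe sets were called higher in place of 4, because dim sets then fell under the filter. Of the 12 called, Itgav 1421198_at and Itgb3 1421511_at passed the filter on cell arrays only, and 5 lower ones, both Itga8 sets, Itga3 1460305_at, Itgb1 1438119_at and Itgb6 1422983_at, on lung arrays only. The filter fixed the direction of these 7, so the counts of calls are a description. The 2 cell groups share the same 16 lungs, so their differences from lung are not independent of each other.

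**Figure D1:**
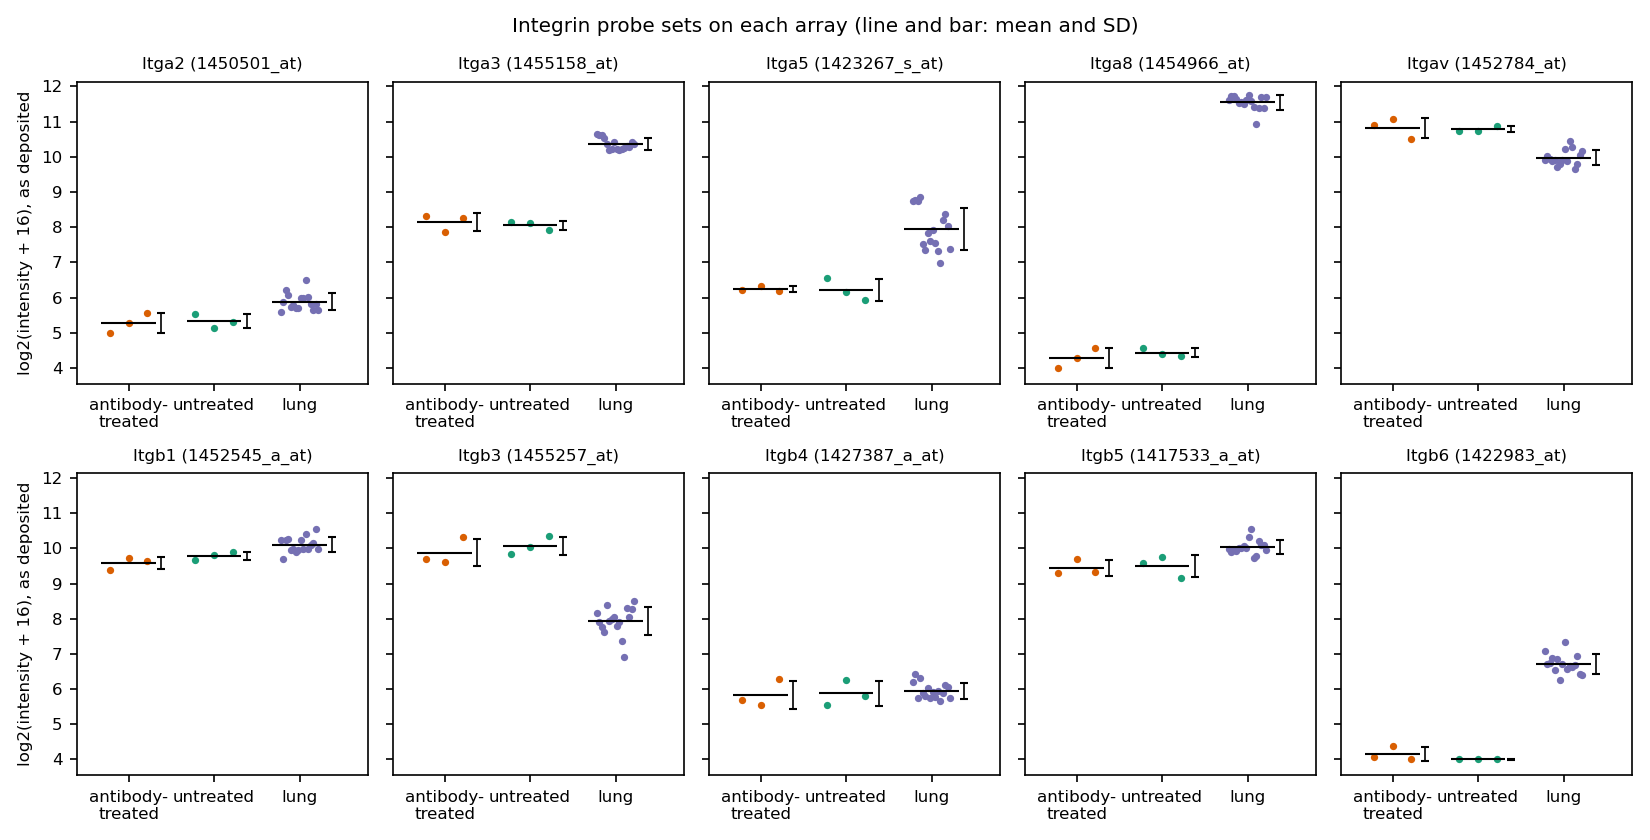
Intensity of the brightest probe set of each integrin, as log2(intensity + 16) of the deposited values, on each array of antibody-treated cells (n = 3), untreated cells (n = 3) and lung (n = 16); points are arrays, the line and bar are mean and SD. Itga8, Itgb6, Itga3 and Itga5 lie lower and Itgb3 and Itgav higher in both cell groups than on any lung array.

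Itga8, which pairs with Itgb1 to bind nephronectin and other RGD ligands, had the largest difference. Its probe set 1454966_at read 0.00453, 3.38 and 7.91 in antibody-treated cells, 7.72, 5.23 and 4.22 in untreated cells, and 1940 to 3428 with a median of 3088 in lung. All 6 cell arrays were near 0 and no lung array was. Both Itga8 probe sets passed the filter on lung arrays only, so the filter fixed the direction and the p-values add no support for it. The log2 difference from lung was -7.24 ± 0.12 (SE, adjusted p = 2.47e-24) in antibody-treated and -7.05 ± 0.12 (adjusted p = 3.85e-24) in untreated cells. With a cell signal near 0, the size depends on the added offset: it was -9.67 and -8.61 with an offset of 1 and -5.50 and -5.44 with 64. The second probe set, 1427489_at, averaged 0.0142 ± 0.0206 in antibody-treated cells, 0.00199 ± 0.000864 in untreated cells (SD, n = 3 each) and 270.7 ± 89.0 in lung (n = 16), with log2 differences of -4.02 and -4.04. The 10 fibroblast and smooth muscle markers ran from -6.09 (Tagln) to 1.10 (Col1a1) in antibody-treated and from -6.31 to 1.16, for the same genes, in untreated cells. On the brightest sets Pdgfra, Myh11, Tagln, Dcn, Lum and Thy1 were lower, Col1a1 was higher, and Col1a2, Pdgfrb and Acta2 were not called. Another Dcn set was above lung by 0.96 with antibody and 0.80 without, not called. Other sets of Pdgfrb (-1.19 and -1.24) and Acta2 (-1.80 and -1.67) were called lower. Myh11 and Lum, at most 5.43 and 9.06 in the cells, passed the filter on lung arrays only. So did Thy1, at most 20.8, in the antibody-treated comparison. The part of such cells in the Itga8 difference was not tested.

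Itga3, the alpha subunit of a laminin receptor, was lower in both cell groups on its 3 probe sets, of which 1460305_at passed the filter on lung arrays only. On 1455158_at the intensities were 306, 216 and 292 in antibody-treated cells, 266, 260 and 225 in untreated cells, and 1150 to 1580 (median 1268) in lung. Every cell array thus kept a signal above the array median but below every lung. The log2 difference was -2.09 ± 0.096 (adjusted p = 9.85e-16) in antibody-treated and -2.18 ± 0.096 (adjusted p = 4.00e-16) in untreated cells. Probe set 1421997_s_at averaged 35.0 ± 6.98 in antibody-treated cells, 35.9 ± 10.0 in untreated cells and 529.2 ± 84.4 in lung, a log2 difference of -3.21 and -3.19. Probe set 1460305_at, with 16.1 to 24.6 in antibody-treated cells, 10.0 to 24.1 in untreated cells and 66.2 to 185 in lung, differed by -1.61 and -1.79, the first of which was -0.94 and not called with an offset of 64. The epithelial marker sums given above moved in the same direction, and their part in the Itga3 difference was not tested.

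Itgb6, the epithelial beta subunit that pairs with Itgav, was near 0 in the cells. Its probe set 1422983_at read 0.767, 4.87 and 0.0537 in antibody-treated cells, 0.0207, 0.00398 and 0.144 in untreated cells, and 59.96 to 146 (median 87.5) in lung. The groups did not overlap, and the lung level was itself modest for these arrays. This set passed the filter on lung arrays only, so the filter fixed its direction and the p-values add no support for it. The log2 difference was -2.43 ± 0.16 (adjusted p = 6.08e-13) in antibody-treated and -2.59 ± 0.16 (adjusted p = 1.77e-13) in untreated cells. It was -4.86 and -5.88 with an offset of 1, and -1.15 and -1.20 with 64. The weaker probe set 1432281_a_at, at 5.26 to 10.8 in antibody-treated cells, 2.04 to 11.2 in untreated cells and 18.7 to 39.2 in lung, differed by -0.68 and -0.80, under the 2-fold required. This set too passed the filter on lung arrays only, so the filter fixed its direction. Its deposited groups did not overlap either, and over the alternatives tried these differences reached -1.33 and -1.72.

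Itgb3, the beta subunit of the vitronectin receptor with Itgav and of the platelet fibrinogen receptor with Itga2b, was higher in the cells on its brightest probe set. Probe set 1455257_at read 815, 773 and 1262 in antibody-treated cells, 901, 1033 and 1280 in untreated cells, and 104 to 349 (median 235) in lung. The lowest cell array was more than 2-fold above the highest lung. The log2 difference was 2.02 ± 0.21 (adjusted p = 3.70e-09) in antibody-treated and 2.18 ± 0.21 (adjusted p = 9.64e-10) in untreated cells. The dim probe set 1421511_at, which passed the filter on the 3 cell arrays alone and so adds no support, read 44.9 to 65.1 in antibody-treated cells, 57.5 to 61.9 in untreated cells and 0.00161 to 8.84 in lung. The 6 platelet markers summed to 373 to 505 in antibody-treated cells, 355 to 501 in untreated cells and 2121 to 5084 in lung, with Gp9 near 0 in the cells. Pf4, Ppbp and Gp9 were lower, Itga2b and Gp1bb were not called, and Gp6 was above lung by 0.86 in antibody-treated and 0.96 in untreated cells, under 2-fold. In the cells Pf4, Ppbp and Gp9 read at most 12.3, 13.4 and 0.022. These sets passed the filter on lung arrays only, so the filter fixed their direction. The part of platelets in the Itgb3 level of lung was not tested.

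Itgav, the alpha partner of Itgb3, Itgb5 and Itgb6, read higher on every cell array than on any lung on its brightest probe set, with group differences under 2-fold. Probe set 1452784_at read 1885, 2140 and 1446 in antibody-treated cells, 1698, 1700 and 1876 in untreated cells, and 785 to 1380 (median 953) in lung. The log2 difference was 0.84 ± 0.13 (adjusted p = 3.90e-06) in antibody-treated and 0.77 ± 0.13 (adjusted p = 1.20e-05) in untreated cells, which was not called. It passed 2-fold with median centring (1.13 and 1.09) and, in antibody-treated cells, without replicate 3 (1.02). The dim probe set 1421198_at, which also passed the filter on the 3 cell arrays alone, read 30.0 to 66.7 in antibody-treated cells, 39.6 to 56.9 in untreated cells and 0.00339 to 18.1 in lung. On 1432296_a_at the log2 differences were 0.57 and 0.58, not called. Probe sets 1432678_at and 1432679_at stayed at or below 22.04 on all 22 arrays and were not tested.

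**Figure D2:**
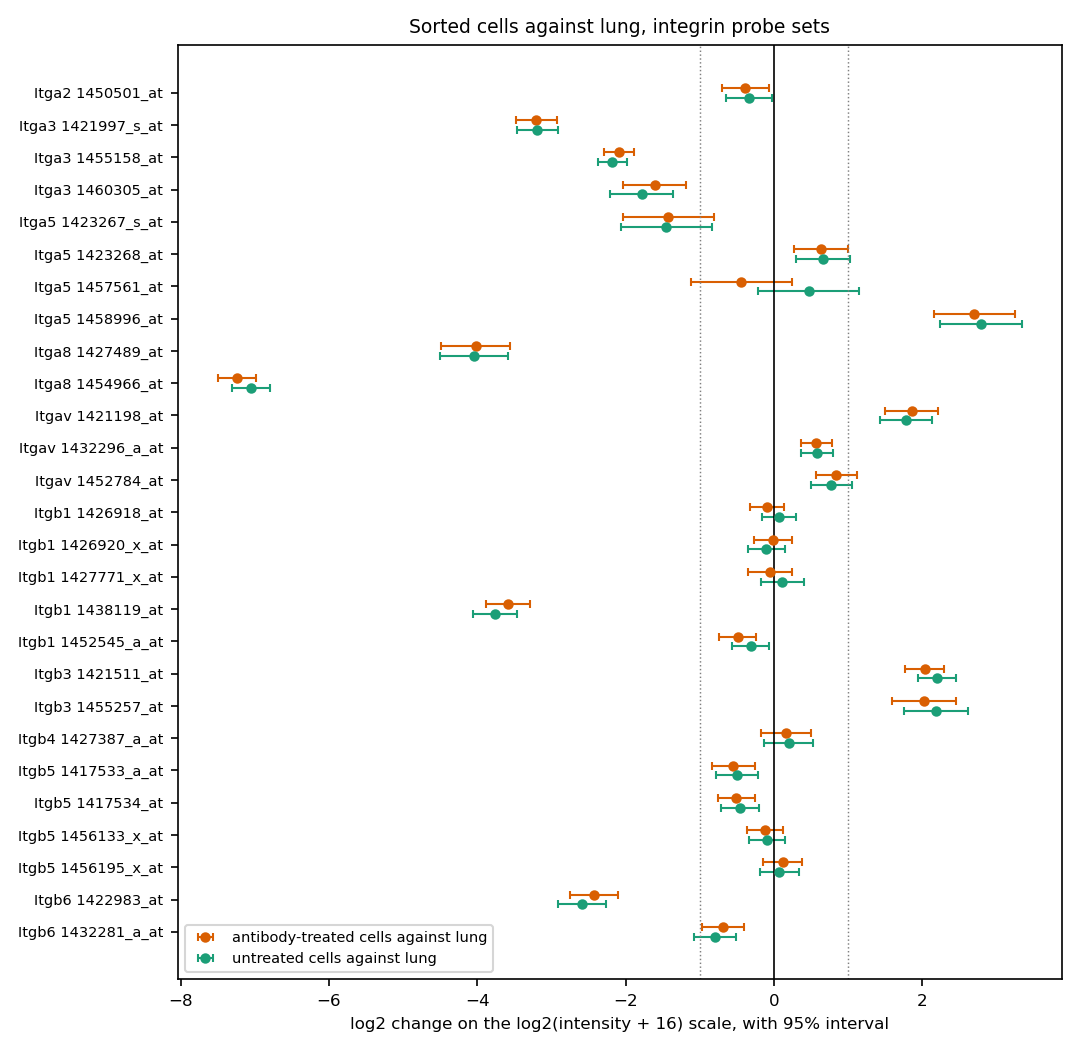
Log2 difference from lung with its 95% interval for the 27 integrin probe sets tested, antibody-treated cells above untreated cells within each pair; dotted lines mark 2-fold. The 2 cell groups lie close together on all but Itga5 1457561_at, probe sets of Itga5 fall on both sides of 0, and Itgb1 1438119_at lies far below the other Itgb1 sets.

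Itga5, the alpha subunit of the fibronectin receptor with Itgb1, had probe sets that went in opposite directions. The brightest, 1423267_s_at, read 59.1, 64.6 and 56.3 in antibody-treated cells, 77.6, 56.2 and 44.8 in untreated cells, and 110 to 453 (median 219) in lung, a log2 difference of -1.42 ± 0.30 (adjusted p = 0.000129) and -1.45 ± 0.30 (adjusted p = 0.000101). In contrast, 1458996_at read 183, 157 and 164 in antibody-treated cells, 172, 172 and 195 in untreated cells, and 0.0289 to 35.9 (median 20.3) in lung, a difference of 2.70 ± 0.27 (adjusted p = 1.76e-09) and 2.79 ± 0.27 (adjusted p = 9.73e-10). Neither direction can therefore be given for the gene, and the call by gene above rests on the choice of the brightest probe set. Probe set 1423268_at, at 109 to 127 in antibody-treated cells, 111 to 132 in untreated cells and 67.4 to 131 in lung, overlapped and was not called (0.63 and 0.66). On 1457561_at untreated replicate 2 alone read 182 against 8.18 and 14.0 on the other untreated arrays, 9.79 to 15.4 in antibody-treated cells and 20.3 to 38.4 in lung. Its uncalled difference of 0.47 in untreated cells was -0.50 without that array, and it was called higher, at 1.04, without untreated replicate 3. On 1423267_s_at the lung itself was uneven: female 1 to 4 read 410 to 453 and the other 12 lungs 110 to 314. The same 4 lungs were the highest on Itga3 1455158_at, at 1472 to 1580.

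Itgb1, the beta subunit shared by most of these receptors, differed little from lung on 4 of its 5 tested probe sets and strongly on the fifth. Probe set 1452545_a_at read 653, 832 and 779 in antibody-treated cells, 794, 876 and 928 in untreated cells, and 821 to 1484 (median 1037) in lung, so the groups overlapped. Its log2 differences were -0.49 ± 0.12 and -0.31 ± 0.12 (limma, adjusted p = 0.000764 and 0.0207), not called because they were under 2-fold. Sets 1426918_at, 1426920_x_at and 1427771_x_at differed by -0.10, -0.01 and -0.05 in antibody-treated cells and by 0.06, -0.10 and 0.11 in untreated cells, none called, and signs of this size turn with the scaling. On 1438119_at, by contrast, the cells were at 4.87, 4.51 and 5.46 with antibody and at 3.61, 5.38 and 0.00547 without, against 174 to 334 (median 272) in lung. That difference was -3.58 ± 0.14 (adjusted p = 5.27e-17) in antibody-treated and -3.76 ± 0.14 (adjusted p = 1.92e-17) in untreated cells. Since 1438119_at passed the filter on lung arrays only, the filter fixed its direction. The sixth set, 1426919_at, was too dim to be tested, at 15.6 to 22.3 in antibody-treated cells, 12.5 to 23.8 in untreated cells and 0.00468 to 7.73 in lung. Where on the transcript the probes of these sets lie was not analysed here.

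**Figure D3:**
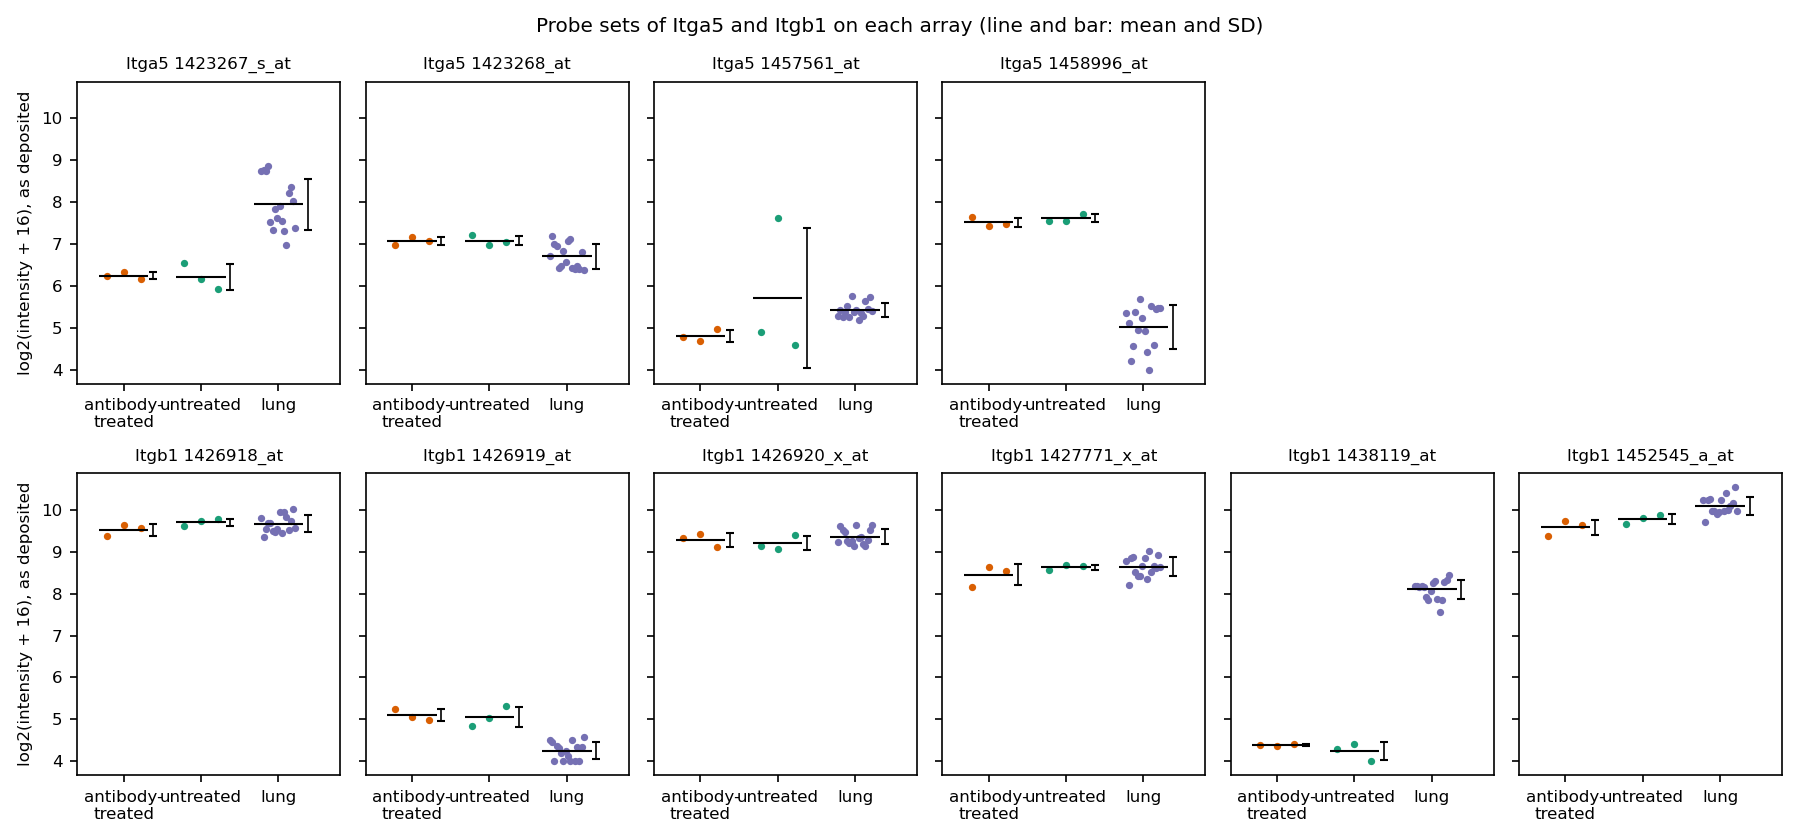
The 4 probe sets of Itga5 (upper row) and 6 of Itgb1 (lower row) on each array, as log2(intensity + 16) of the deposited values in antibody-treated cells, untreated cells and lung; line and bar are mean and SD. Itga5 1423267_s_at and 1458996_at separate cells from lung in opposite directions, and Itgb1 1438119_at is near the floor in the cells while 4 other Itgb1 sets overlap with lung.

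Itgb5, which pairs with Itgav as a vitronectin receptor, was slightly below lung on 2 probe sets and level with it on 2 of the cross-hybridizing type. Probe set 1417533_a_at read 615 to 816 in antibody-treated cells, 558 to 854 in untreated cells and 824 to 1475 in lung. Its log2 differences were -0.55 ± 0.14 and -0.50 ± 0.14 (limma, adjusted p = 0.000979 and 0.0023), not called because they were under 2-fold. Set 1417534_at differed by -0.51 and -0.46, and 1456133_x_at and 1456195_x_at by -0.13 and 0.12 in antibody-treated and -0.09 and 0.07 in untreated cells. Itgb4, the partner of Itga6 in hemidesmosomes, averaged 42.9 ± 17.0 in antibody-treated cells, 44.1 ± 15.4 in untreated cells (SD, n = 3 each) and 46.8 ± 10.3 in lung (n = 16), and was not called (0.16 and 0.20, adjusted p = 0.372 and 0.265). Itga2, the alpha subunit of a collagen receptor, read 15.6 to 31.2 in antibody-treated cells, 19.5 to 30.6 in untreated cells and 31.8 to 74.8 in lung. Its deposited groups did not overlap with lung, but the normalized values did. The log2 differences of Itga2 were -0.38 and -0.34 (limma, adjusted p = 0.0239 and 0.0433), under the 2-fold required, and were not called.

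The antibody comparison asked whether binding EpCAM for 48 h changed the integrins of the sorted cells, and no difference was detected in any probe set tested. Of the 30 probe sets, 19 passed the filter on the 6 cell arrays, those of Itga3, Itga5, Itgav, Itgb1, Itgb3, Itgb4 and Itgb5. With limma 0 of the 19 were called (all adjusted p = 0.999917), 0 had an unadjusted p under 0.05 and 0 had groups that did not overlap. Over the whole array 0.0109% of 27499 probe sets were called, that is 3, and 331 had an unadjusted p under 0.05. That number was 7 without antibody-treated replicate 2, 5 without untreated replicate 1, 9 without untreated replicate 2 and 1 without untreated replicate 3. Non-overlapping groups occurred in 4.09% of the probe sets.

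The 19 log2 differences of antibody-treated from untreated cells lay between -0.18 and 0.09, with 6 positive and 13 negative, against a median of -0.01 over all probe sets. Their 95% intervals reached from -0.63 to 0.64, so each excluded a 2-fold change for these preparations. The brightest set of Itgb3 had an interval from -0.62 to 0.31 and that of Itgav one from -0.31 to 0.45. Itga2, Itga8 and Itgb6 were not tested here, since the cell arrays were at or near the low end of the scale. Itgb6 1422983_at read up to 4.87 with antibody and up to 0.144 without, values at which an order carries no meaning.

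**Figure D4:**
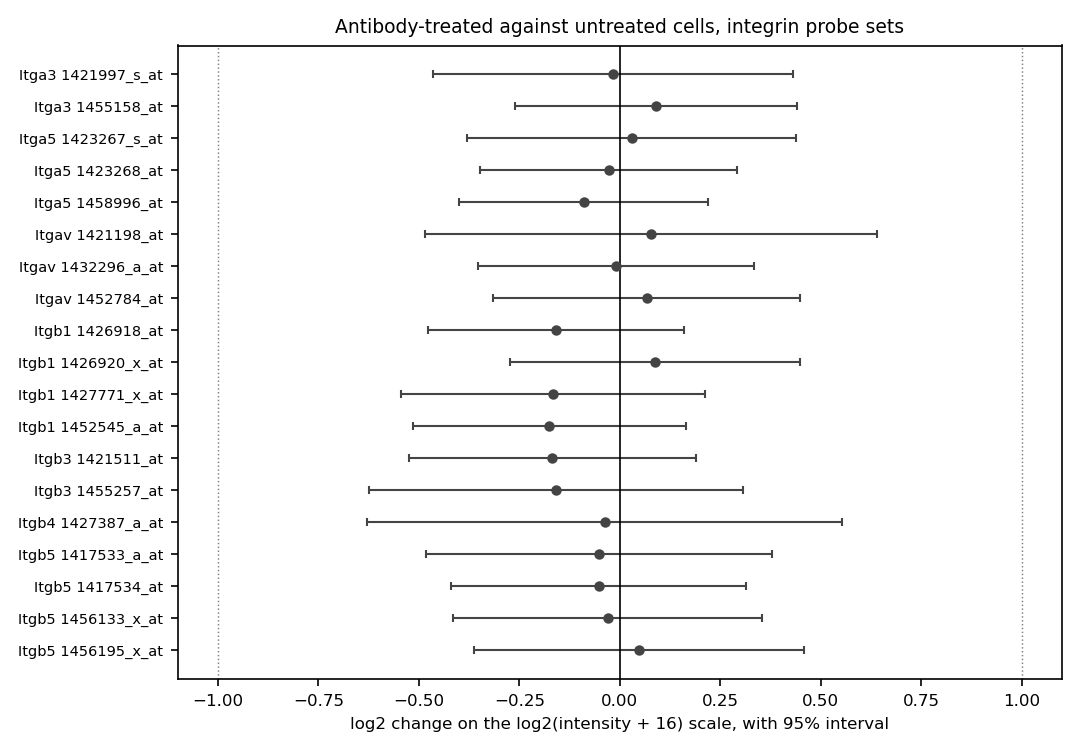
Log2 difference of antibody-treated from untreated sorted cells with its 95% interval for the 19 integrin probe sets tested (n = 3 each); dotted lines mark 2-fold. All intervals cross 0 and stay within 2-fold.

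Female and male lung were compared to describe the spread of the tissue, and 0 of 24 integrin probe sets tested were called with limma, against 0.108% of all 29538. Of the 24, 3 had an unadjusted p under 0.05, against 2974 of all 29538, and none passed the adjustment (adjusted p from 0.385 to 0.999698). The widest difference was that of Itga5 1423267_s_at, 0.47 (95% interval -0.06 to 1.01), with 147 to 453 in female and 110 to 314 in male lung. Itga3 1455158_at, 1162 to 1580 in female and 1150 to 1354 in male lung, differed by 0.19 (adjusted p = 0.385). The other probe sets lay between -0.23 and 0.22. No integrin was called when male 3 and male 4, whose sex genes go against their label, were left out.

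Most other subunits of the family were lower in sorted cells. Of 15 further integrin genes tested, 11 were lower and 1 higher in antibody-treated cells (median log2 difference -1.89) and 10 lower and 1 higher in untreated cells (-1.97), against -0.01 and 0.01 over the brightest probe sets of all genes, of which 23.9% and 23.8% were lower. The 4 with the largest differences were leukocyte integrins: Itgal (-5.08 and -5.17), Itga4 (-4.70 and -4.82), Itgax (-4.54 and -4.57) and Itgb2, their common beta subunit save for Itga4 (-3.78 and -3.68), with the antibody-treated value first. On their brightest probe sets, Itgal, Itga4, Itgax, Itgam and Itga9 read at most 3.55, 4.24, 12.7, 5.00 and 15.2 in the cells. These values lie under the 40th percentile of every cell array (24.6 to 25.8). The filter thus fixed the direction of these sets, as it did for Postn, Edil3, Lama3, Lamb3 and Lims2 below. The counts of lower genes are therefore a description. Another tested set of Itgal differed by -0.18 and -0.35 and was not called. The leukocyte markers summed to 126 to 196 in antibody-treated cells, 121 to 141 in untreated cells and 10592 to 15390 in lung. Their part in the differences of the 4 leukocyte integrins was not tested. The single higher gene was Itgb8, the other TGF-beta activating partner of Itgav, at 92.6 to 127 in antibody-treated cells, 54.1 to 158 in untreated cells and 27.2 to 75.8 in lung (1.28 and 1.35). Itga6, the partner of Itgb4, was lower by -1.68 and -1.51. These last 2 genes were named after their values were seen.

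Ligands of the RGD-binding integrins were found in both directions. Of 13 tested, 3 were higher and 7 lower than lung in each cell group, against 17.2% higher and 23.9% lower of all genes in antibody-treated and 17.8% and 23.8% in untreated cells (median -1.11 with antibody and -1.26 without). Postn, a matricellular protein of fibroblasts, differed by -6.93 in antibody-treated and -6.94 in untreated cells, and Edil3, an endothelial ligand of Itgav receptors, by -3.20 and -3.06. Another tested set of Edil3 differed by -0.10 and -0.03 and was not called. Npnt, the nephronectin that Itga8 binds, read 19.0 to 74.5 in antibody-treated cells, 19.3 to 62.6 in untreated cells and 2465 to 3654 in lung, and differed by -5.35 and -5.75. The receptor Itga8 and its ligand Npnt were thus both lower in the cells. Nov, a matricellular protein of the CCN family, was higher by 3.26 and 3.03. The other higher genes, named after their values were seen, were Fn1, fibronectin, the ligand of Itga5 (1.70 and 1.68), and Ltbp1, which binds latent TGF-beta to the matrix (1.25 and 1.501).

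Among 12 collagen and laminin genes 1 was higher and 4 were lower in each cell group (median -0.34 with antibody and -0.29 without). These 5 of 12 are close to the 41.1% and 41.6% of all genes called. Lama3 and Lamb3, chains of the laminin that epithelial Itga3 binds, differed by -4.30 and -3.69 in antibody-treated and -4.35 and -3.66 in untreated cells. Another tested set of Lama3 differed by 0.23 with antibody and -0.47 without and was not called. The type IV collagen genes Col4a2 and Col4a1 of basement membrane were lower by -2.49 and -2.36 with antibody and -2.51 and -2.41 without. Col1a1, named after its value was seen and also among the fibroblast markers, was the higher one (1.10 and 1.16). Lamb1, also named after its values were seen, was under 2-fold on its brightest set (0.69 and 0.82), while 2 of its 3 tested sets were called higher, up to 1.45 and 1.56.

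In the list of talin, kindlin and focal adhesion proteins, calls on the brightest probe set were lower only, but other probe sets went both ways. Of 20 genes, limma called 10 lower and 0 higher in each cell group (median -1.002 in antibody-treated and -1.005 in untreated cells), against 23.9% and 23.8% lower of all genes. At an unadjusted p under 0.05 and any size, 5 were above lung and 13 below it in each group. Over the whole array, 26161 of 32422 probe sets with antibody and 26512 of 32533 without had such a p, so this is common. On any probe set, 4 of the 20 genes had one called higher in each group, named here after their values were seen: Lims1 (up to 1.77 and 1.76), Rsu1 (1.59 and 1.84), Sharpin (1.497 and 1.42) and Parva (1.11 and 1.14). A set called lower was found for 11 of the 20 with antibody and 12 without. The share of all genes with such sets was not computed. The largest differences were those of Lims2, an adaptor of integrin-linked kinase (-5.65 and -5.32), Tns1, a tensin (-4.63 and -4.75), Parvb, a parvin (-3.44 and -3.53), and Fermt3, the kindlin of blood cells (-3.22 and -3.40). Of 9 hemidesmosome and tetraspanin partners, limma called 1 higher and 0 lower on the brightest probe set. Of all genes, 17.2% were higher and 23.9% lower with antibody, and 17.8% and 23.8% without. The higher one was the tetraspanin Tspan4 (2.06 and 2.08). At an unadjusted p under 0.05 and any size, 3 were above and 4 below lung. On any probe set, 3 had one called higher with antibody and 4 without, and 2 had one called lower in each group. Between antibody-treated and untreated cells, limma called 0 genes in each of these 5 lists, and 0 had an unadjusted p under 0.05. Itga9, Parva and Dst, like Itga5, had probe sets called in both directions against lung, Dst in untreated cells alone. Genes of the lists without a probe set used here, such as Spp1, Itga11 and Ptk2, were not analysed here.

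**Figure D5:**
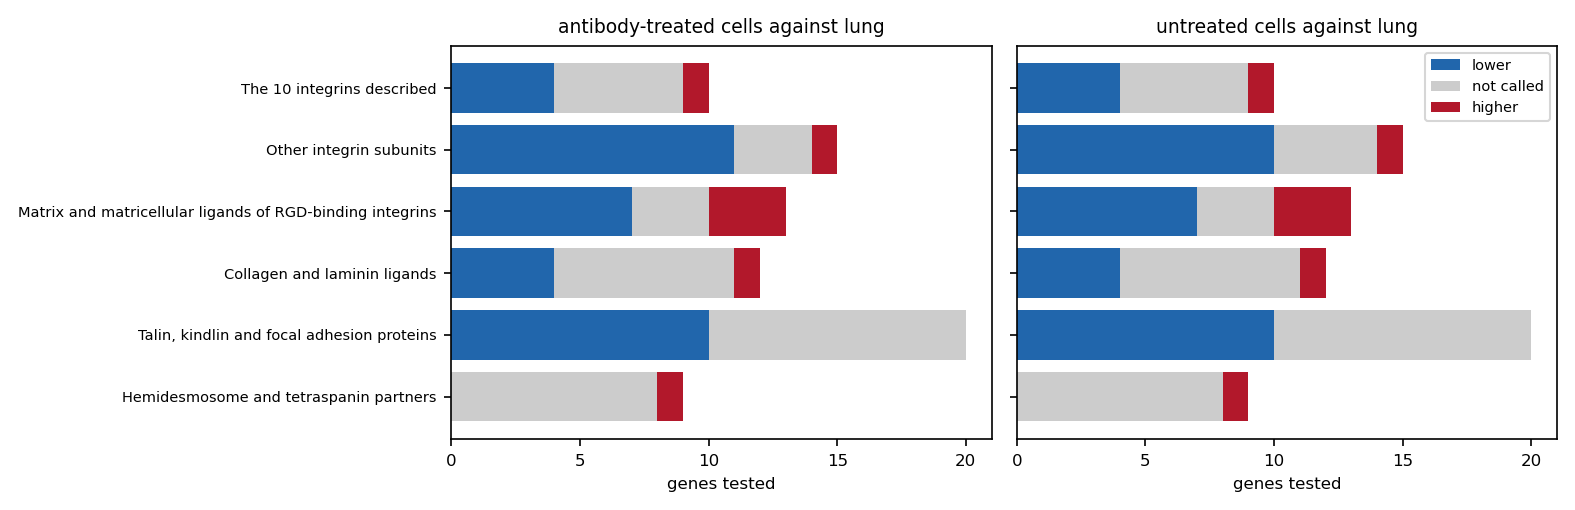
Number of genes tested in each list, by call against lung (adjusted p under 0.05 and at least 2-fold, brightest probe set per gene), for antibody-treated cells (left) and untreated cells (right). The other integrin subunits have 11 and 10 lower genes of 15, and the hemidesmosome and tetraspanin partners have none.

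The genes whose pattern over the 22 arrays was most like that of an integrin were found by the root mean square (RMS) difference of log2 values, each centred on its own mean, among 14306 genes. For Itga8 these were Gucy1a1 (RMS 0.165) and Cyyr1 (0.188), against a median RMS of 3.20 over all candidates. For Itga3 they were Chd7 (0.141) and Zcchc3 (0.152), and for Itgb6 Zfp148 (0.160) and Rdh7 (0.200), with medians of 1.03 and 1.19. Itgav was nearest to Fam204a (0.116) and Kdm5a (0.126), median 0.544, and Itgb3 to Chst1 (0.258) and Fam20a (0.268), median 1.02. The likeness is mostly that of a common step between the 6 cell arrays and the 16 lungs. For sets near 0 in the cells the size of that step depends on the added offset. Zfp148 averaged 76.3 with antibody, 64.6 without and 547 in lung, and Itgb6 1.90, 0.0561 and 90.7. A small RMS therefore does not mean like fold changes of intensity.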

How the data were processed

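RNA of 22 samples was measured on arrays of 45101 probe sets, of which 64 controls were left out. The deposited values are linear intensities per probe set, summarized with PLIER per the submitters' processing notes; its version and settings, and whether arrays were scaled, are not given in the sources used here. Gene symbols came from the platform annotation table, with 34945 probe sets of 1 symbol, 932 of several and 9160 unlisted. Intensities were taken as log2(intensity + 16) and quantile normalized over all 22 arrays. Tests used the linear models of limma 3.58.1 (R 4.3.3, moderated variances with an intensity trend, two-sided tests, Benjamini-Hochberg over all probe sets tested). Each cell group was set against the mean of female and male lung in a fit of 4 groups, the antibody comparison used the 6 cell arrays, and the sex comparison the 16 lung arrays. A probe set was tested if its intensity was over the 40th percentile of its array in 3 or more of the samples compared. A gene was represented by its probe set of highest mean, avoiding cross-hybridizing (_x_) sets, and all probe sets of the 10 integrins are reported. For other lists, up to 4 called genes with the largest difference were named. The members and lists were chosen with earlier results of these data known. Same-numbered samples did not deviate together (correlations from -0.17 to 0.04 between the cell groups and from -0.08 to 0.24 between the sexes), so the numbers were not used to pair samples. No arrays were identical. The code was tested on simulated data. Alternatives were other normalizations, offsets, filters, gene summaries and variance models, a replicate block, other sets of arrays and leaving out each cell array.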

Additional observations from a re-analysis of the deposited data

Results flagged for a closer look

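In 3 of the 60 integrin groups of 8 lungs, 1 sample stood apart from the others by the gap test at the 95% level, and chance gives about 1 in 20, or 3. Itga2 1450501_at read 74.8 in male lung 3, against 33.8 to 48.4 in the other male lungs. Itgav 1421198_at read 18.1 in female lung 5, against 2.18 to 7.45 in the other female lungs. Itgav 1432678_at read 22.04 in male lung 2, against 7.23 to 11.3 in the other male lungs. All 3 probe sets are dim on these arrays.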

How the results depend on the processing

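Over the alternatives tried, no called integrin difference changed direction. Scaling shifts the background: the median of all probe sets for antibody-treated and untreated cells against lung was 0.125 and 0.145, -0.0656 and -0.0384 without normalization and 0.21 and 0.232 with median centring, and the called share that was higher went with it (50.3% and 50.6%, 40.3% and 40.3%, 55.3% and 55.2%). Probe sets called against lung numbered 12754 with antibody and 12944 without. They were 7889 and 7993 with an offset of 64, 6226 and 6315 with 1 probe set per gene, 5286 and 5347 with the mean of a gene's sets, and 25789 and 26183 with no fold requirement.

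Integrin probe sets called higher, 4 in each cell group, were 2 in each with a 60th percentile filter and 7 with no fold requirement. With an offset of 64 they were 2 in antibody-treated cells. Leaving out a cell array gave 2 to 3 in each group, since sets that pass the filter on 3 cell arrays then drop out. The 8 called lower were 13 in each with no fold requirement. By gene, 1 higher was 2 in each with median centring (Itgav added) and 2 with no fold requirement, and 1 to 2 leaving out an antibody-treated array. The 4 lower were 7 with no fold requirement.

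Between antibody-treated and untreated cells, 3 calls over all probe sets were 5 with an offset of 64, 6 with array weights, 10 with 22 arrays in the fit and 1 to 9 leaving out an array. Between female and male lung, 32 were 19 with an offset of 1, 9 with no filter, 7 with 1 probe set per gene, 10 with the mean, 7 with no variance trend, 118 with array weights, 1 with a replicate block and 58 without male 3 and male 4. No integrin was called in either under any alternative. The replicate block gave 12928 and 13052 calls against lung and 3 between cell groups, and changed no integrin call. Dim probe sets limit what can be said of Itga2, Itga8 and Itgb6 in the cells. The causes were not tested.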
